A study of Homo sapiens with 3 samples.

Results

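The human mitochondrial chromosome carries 37 genes, and all 37 were measured in HaCaT cells, an immortalized human keratinocyte line, after knockdown of SRSF5. They were chosen as every gene listed on chrM, 37 of 60506 genes in all, and were split by the type the files give: 13 mRNAs, 2 ribosomal RNAs (rRNAs) and 22 transfer RNAs (tRNAs). SRSF5 belongs to the SR proteins, a family of splicing factors that bind pre-mRNA. Cells labelled wild type received a control siRNA, and cells labelled as SRSF5 knockdown received No.1 or No.2 of a pair of SRSF5 siRNAs (siRNA 1, siRNA 2). All siRNAs were transfected at 10 nM with RNAiMAX, and each gave 1 library. The control group therefore held n = 1 and the SRSF5 siRNA group n = 2, with a different siRNA in each library. Nothing in the labels says that a transfection was repeated in separate cultures. The spread behind every p-value below comes from 2 single libraries treated as alike and from the other genes tested. Part of that spread may be technical.

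Mitochondrial DNA is a small circle transcribed on both strands into long precursor RNAs that run across many genes. The tRNA genes lie between most of the mRNA and rRNA genes, and enzymes cut the precursors at the tRNAs, which frees the mRNAs and rRNAs as well. The mRNAs encode core subunits of respiratory complexes I, III and IV and of ATP synthase, the rRNAs build the mitochondrial ribosome, and the tRNAs serve translation on it. Mitochondrial genes hold no introns, and most of their mRNAs receive short poly(A) tails inside the organelle.

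The listed transcripts held 44586223 reads in the control library, 42281109 in that of siRNA 1 and 41269677 in that of siRNA 2. The targeted gene, SRSF5, had summed FPKM values of 94.07 (control), 44.3 (siRNA 1) and 18.67 (siRNA 2), so the siRNAs left 47.1% and 19.85% of the control level. FPKM is a read count divided by the length of the transcript and by the depth of the library, and a gene with several listed transcripts is given by their sum. Where 3 values follow each other, they stand for the control, siRNA 1 and siRNA 2 in this order. The reads were recovered from the FPKM values. All 10 keratinocyte markers looked at passed the filter of a mean FPKM of at least 1, and they did not move together. KRT5, a keratin of basal keratinocytes, stood at 2259, 2558 and 3523, while KRT6A stood at 594.2, 479.9 and 469.6 and KRT15 at 319.3, 110.6 and 275.6. KRT17 was at least 1.5-fold above the control with both siRNAs, at 263.0, 722.7 and 1312. With siRNA 2, 4 of the 10 (TP63, KRT17, DSG3 and KRT14) were at least 1.5-fold above both other libraries, against 7.18% of all genes tested. That far below both were 0 of the 10, against 5.88%. KRT14 stood at 714.2, 1040 and 3164, DSG3 at 55.17, 41.31 and 150.0 and TP63 at 28.1, 29.37 and 64.15. Of the markers of other cell types, 1 of 7 for fibroblasts (COL1A1, at 2.51, 5.02 and 4.89), 1 of 5 for melanocytes (MITF) and 0 of 5 for leukocytes passed that filter, and the melanocyte genes TYR and MLANA were listed at 0 in all 3 libraries. The summed FPKM was 2.92, 5.62 and 6.44 for the fibroblast list, 4.51, 7.7 and 5.84 for the melanocyte list and 0.757, 0.903 and 1.27 for the leukocyte list. The summed FPKM of the 10 keratinocyte markers was 4954 in the control library, 5873 in the siRNA 1 library and 9642 in the siRNA 2 library, and the part of these markers in the mitochondrial differences below was not tested.

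Mitochondrial genes took 13.7% of all reads in the control library, 14.77% in the siRNA 1 library and 10.0% in the siRNA 2 library. The siRNA 2 library thus held the lowest share, and the siRNA 1 library lay above the control. The 13 mRNAs took 10.3%, 10.99% and 6.89% of all reads in the same order. The 2 rRNAs took 3.32%, 3.75% and 3.09%. The 22 tRNAs took 0.0269%, 0.0279% and 0.0196%. Relative to its control value, the pooled share with siRNA 2 was thus lower for the mRNAs and tRNAs than for the rRNAs. The pooled tRNA share leans on the valine tRNA MT-TV, which held 3131 of 11983 tRNA reads in the control library. With siRNA 2 it held 1082 of 8104. Within the mitochondrial reads the rRNA share went from 24.3% in the control and 25.4% with siRNA 1 to 30.9% with siRNA 2. The labels do not state whether poly(A) RNA was selected or how well the column retained short RNA, and the part of either in the levels of the 3 types was not tested. In bulk RNA, a lower mitochondrial DNA copy number or fewer mitochondria per cell and less RNA per mitochondrion cannot be told apart.

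**Figure D1:**
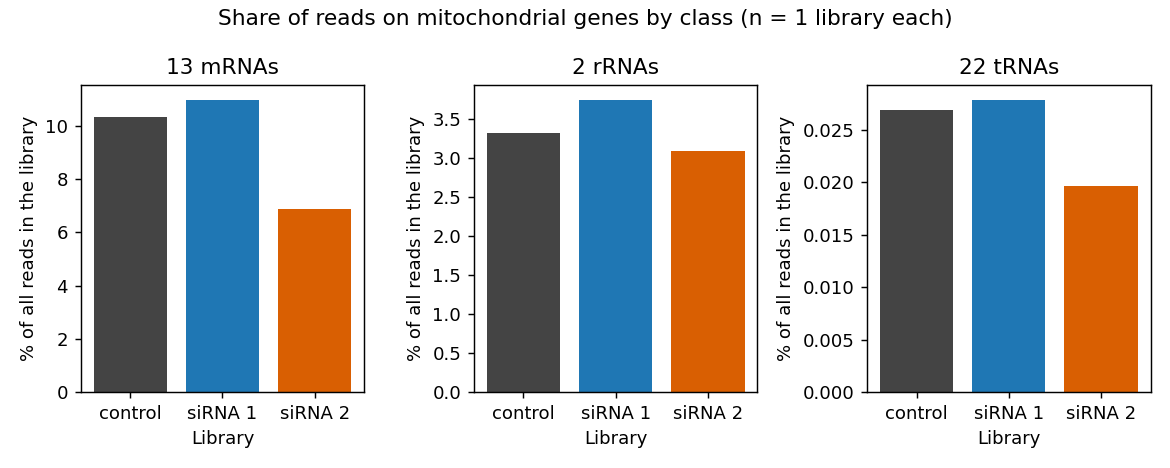
Share of all reads in each library that lay on the mitochondrial mRNAs, rRNAs and tRNAs, in percent, with 1 bar per library and a scale of its own in each panel. The siRNA 2 bar is the lowest of the 3 in every panel, at 6.89% for mRNAs, 3.09% for rRNAs and 0.0196% for tRNAs.

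Among all listed transcripts, the 10 with the highest mean FPKM were all mitochondrial. In every library MT-CO2, which encodes a core subunit of complex IV (cytochrome c oxidase), was the highest mitochondrial mRNA, with FPKM values of 20216 (control), 21453 (siRNA 1) and 14339.5 (siRNA 2). MT-CO1, the catalytic subunit of complex IV, and MT-ATP6, a subunit of ATP synthase, followed it in every library. At the other end, MT-ND3 and then MT-ND6 were the lowest mRNAs in all 3 libraries. From the highest to the lowest mRNA the FPKM spanned 205.8-fold in the control library, 236.0-fold in the siRNA 1 library and 253.4-fold in the siRNA 2 library. In between, MT-CO3, MT-ATP8 and MT-ND4 traded places among themselves and MT-ND1 traded places with MT-ND2, while the other mRNAs held their rank in all 3 libraries.

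**Figure D2:**
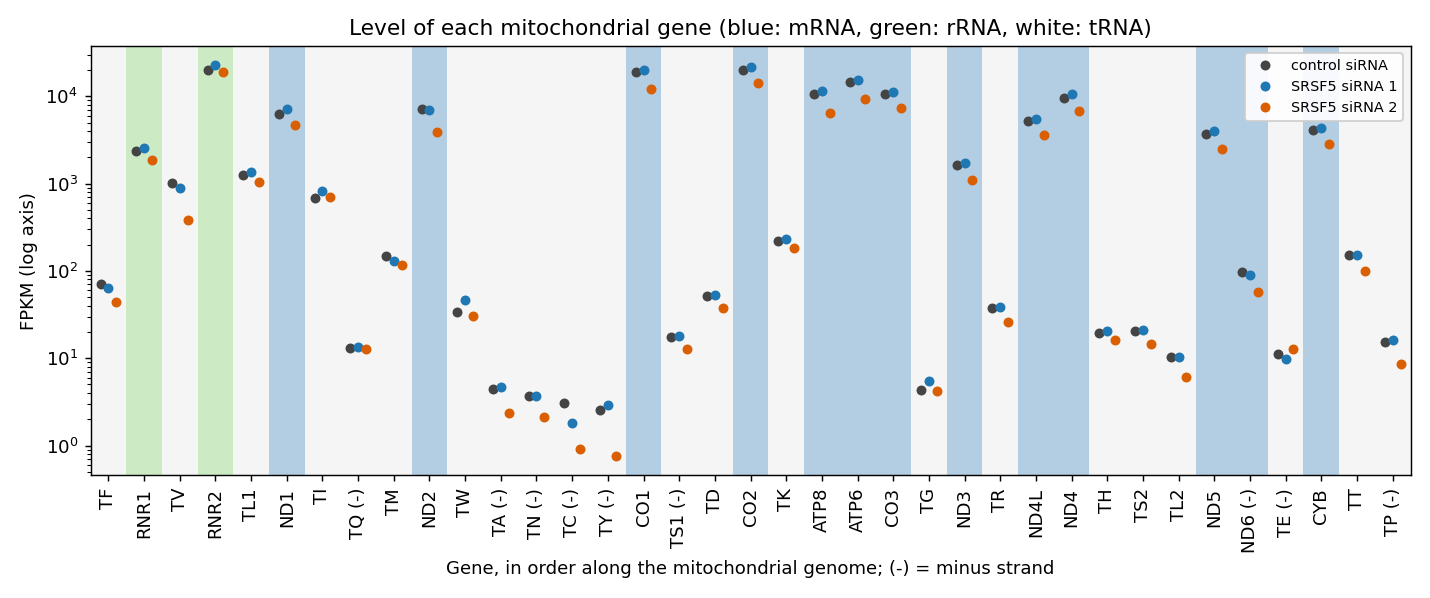
FPKM on a log axis of each mitochondrial gene in the control, siRNA 1 and siRNA 2 libraries, 1 point per library, in the order of the genes along the chromosome, with the background coloured by type. The mRNAs and rRNAs other than MT-ND6 lie above 1000 FPKM, while the tRNAs run from 0.764 (MT-TY with siRNA 2) to 1365 (MT-TL1 with siRNA 1).

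Complex I (NADH dehydrogenase) takes 7 of its subunits from mitochondrial DNA, and all 7 mRNAs were lowest with siRNA 2. MT-ND2 (ENSG00000198763.3) had the largest difference among the mRNAs. Its FPKM was 7215 in the control library, 6962 in the siRNA 1 library and 3913 in the siRNA 2 library, so the siRNA 2 library alone stood low, at 54.23% of the control (95% interval 53.9% to 54.55%, exact Clopper-Pearson). All intervals given cover counting error alone, and the recovered reads, often fractions, were rounded to whole numbers for them. They treat each read as a separate molecule, so any copies made by PCR would make them too narrow. MT-ND1 read 6241, 7088 and 4673, and here siRNA 1 was the highest of the 3. The log2 ratios to the control, taken on FPKM + 1 throughout, were -0.05 (siRNA 1) and -0.88 (siRNA 2) for MT-ND2 and 0.18 and -0.42 for MT-ND1. The ratio of MT-ND1 to MT-ND2 in FPKM was accordingly 0.865 in the control library, 1.02 in the siRNA 1 library and 1.19 in the siRNA 2 library.

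The remaining complex I mRNAs lay between these 2 with siRNA 2. MT-ND4 read 9499.7, 10503 and 6832 FPKM, with siRNA 1 above and siRNA 2 below the control. MT-ND4L read 5182, 5526 and 3586. These adjoining genes overlap by 7 bases (chrM:10760-10766), and their FPKM ratio was 1.833, 1.9 and 1.905 in the 3 libraries. MT-ND5 read 3670.2, 4030.3 and 2457, and MT-ND3 read 1647, 1738 and 1107, again with the siRNA 2 library the lowest. Over the 7 mRNAs the median log2 ratio was 0.09 with siRNA 1 and -0.57 with siRNA 2.

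Complex IV and ATP synthase showed the same order of libraries. MT-CO1 read 18826, 19776 and 12099.9 FPKM, and its siRNA 2 level was 64.27% of the control (interval 64.1% to 64.5%). MT-CO2, with the values given above, stood at 70.9%. MT-CO3, the third complex IV subunit, read 10623, 11199 and 7260.4 and stood at 68.35%. The 2 ATP synthase mRNAs, MT-ATP8 and MT-ATP6, were among the lowest relative to control with siRNA 2. MT-ATP8 read 10542, 11373 and 6500.4, and MT-ATP6 read 14740.1, 15524 and 9295. Their log2 ratios with siRNA 2 were -0.70 and -0.67, against a median of -0.55 for the 3 complex IV mRNAs. MT-CYB, cytochrome b of complex III, read 4092, 4324 and 2804 with a log2 ratio of -0.545 for siRNA 2.

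MT-ATP8 and MT-ATP6 are read from 1 RNA and share 46 bases on the plus strand at chrM:8527-8572 (GRCh38). The shared stretch is printed because every read in it touches both genes, so their values are not independent. The capitals mark the start codon of MT-ATP6 inside the end of the MT-ATP8 reading frame.
MT-ATP8/MT-ATP6 overlap: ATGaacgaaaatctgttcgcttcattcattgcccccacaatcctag
The FPKM ratio of MT-ATP6 to MT-ATP8 was 1.398 in the control library, 1.365 in the siRNA 1 library and 1.43 in the siRNA 2 library.

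Over all 13 mRNAs the median log2 ratio was 0.08 with siRNA 1 and -0.57 with siRNA 2, beside -0.025 and 0.0455 over the 13923 genes tested. With siRNA 2 the 13 ratios ran from -0.88 (MT-ND2) to -0.42 (MT-ND1), and all 13 were negative. With siRNA 1 they ran from -0.11 (MT-ND6) to 0.18 (MT-ND1), and 11 of 13 were positive. Both ratios share the 1 control library.

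**Figure D3:**
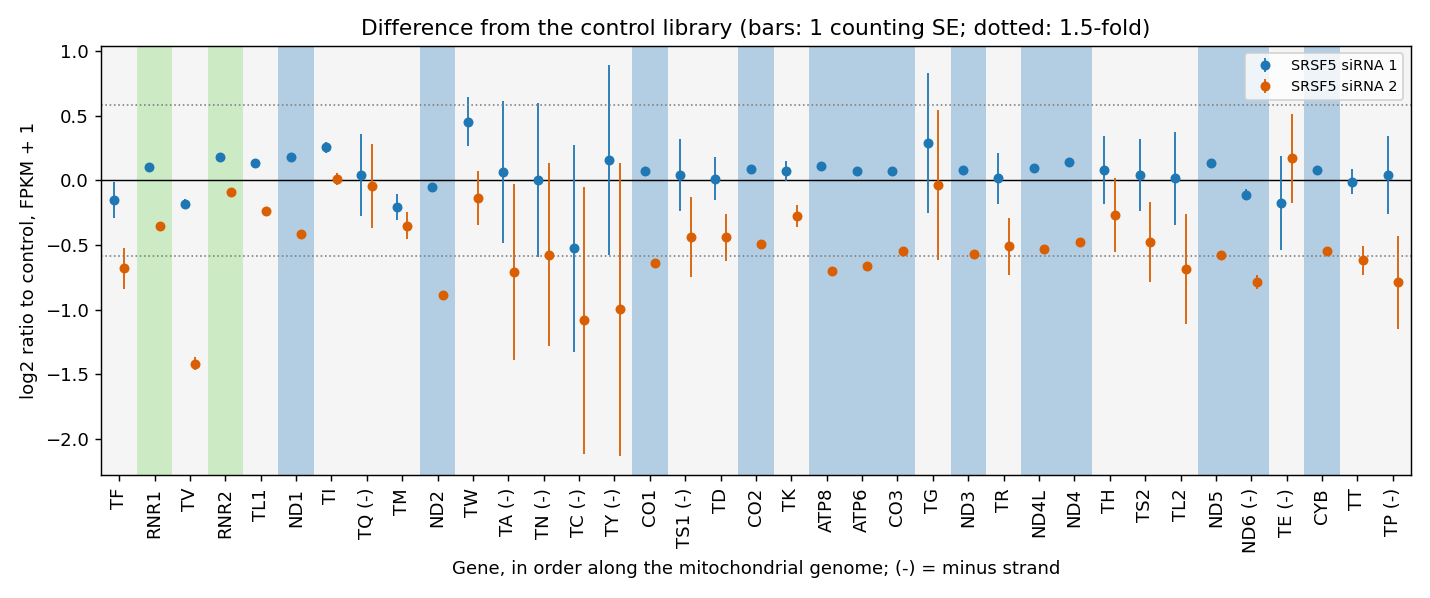
Log2 ratio of FPKM + 1 to the control library for each mitochondrial gene, with siRNA 1 and siRNA 2 as separate points, bars of 1 standard error from counting alone, and dotted lines at a 1.5-fold difference. The siRNA 1 points of the mRNAs lie between -0.11 and 0.18, the siRNA 2 points of the mRNAs between -0.88 and -0.42, and MT-TV is the lowest point on this scale with an error much smaller than its distance from 0.

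The rRNAs differed less with siRNA 2 than the mRNAs did. MT-RNR2, the large-subunit rRNA (chrM:1671-3229), read 19889 in the control library, 22518 in the siRNA 1 library and 18704.5 FPKM in the siRNA 2 library. The siRNA 2 library was again the lowest, at 94.05% of the control. MT-RNR1, the small-subunit rRNA (chrM:648-1601), read 2347, 2526 and 1837 and stood at 78.28%. The log2 ratios were 0.18 and -0.09 for MT-RNR2 and 0.11 and -0.35 for MT-RNR1. Both rRNA ratios with siRNA 2 thus lay closer to 0 than that of every mRNA. The ratio of MT-RNR2 to MT-CO1 in FPKM was 1.06 in the control library, 1.14 in the siRNA 1 library and 1.55 in the siRNA 2 library. Only 1 library carries the last value, and the difference between the types was not tested. The ratio of MT-RNR2 to MT-RNR1 was 8.47, 8.92 and 10.2.

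The tRNAs are short, and their values need care. The deposited values behave in part as reads divided equally among the transcripts they touch, a rule that is not complete. Under this rule, a read that reaches from a long neighbour into a tRNA gene counts in part for the tRNA. Whether a read came from a free tRNA, from uncut precursor RNA or from the end of a neighbouring mRNA or rRNA cannot be told apart in these tables, and the FPKM of a tRNA is no depth per base. The sequences of the tRNAs whose values stand out are printed next, on their own strand, from the GENCODE 29 transcripts (GRCh38). Capitals mark the anticodon, the 3 bases that pair with the codon. The search was for a loop of 7 bases closed by a stem with at least 4 of 5 paired bases. It required a T just before the anticodon and an A or G just after it. The anticodon also had to read as the amino acid of the gene's name, so the match to the name is part of the rule and no check. Such a loop was found for 20 of 22 tRNAs. MT-TM and MT-TS2 gave no such loop.
MT-TV (valine, chrM:1602-1670, plus strand), the lowest log2 ratio of FPKM + 1 with siRNA 2: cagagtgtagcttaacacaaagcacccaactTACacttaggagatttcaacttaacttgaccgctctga
MT-TL1 (leucine, chrM:3230-3304, plus strand), the highest level: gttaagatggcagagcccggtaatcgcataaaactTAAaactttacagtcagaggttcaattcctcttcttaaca
MT-TI (isoleucine, chrM:4263-4331, plus strand), level with the control under siRNA 2: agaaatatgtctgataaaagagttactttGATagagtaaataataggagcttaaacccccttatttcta
MT-TE (glutamate, chrM:14674-14742, minus strand), the highest ratio with siRNA 2: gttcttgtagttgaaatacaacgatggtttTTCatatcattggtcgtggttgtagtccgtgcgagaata
MT-TP (proline, chrM:15956-16023, minus strand), with no neighbour on its strand nearby: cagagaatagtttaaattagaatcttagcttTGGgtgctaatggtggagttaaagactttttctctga

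The highest tRNA values lay around and after the rRNA genes. MT-TL1, which follows MT-RNR2, read 1246 in the control library, 1365 in the siRNA 1 library and 1055 FPKM in the siRNA 2 library. MT-TV, which lies between the rRNA genes, read 1018, 898.1 and 380.1, so the siRNA 2 library stood far below the other two. MT-TI, which follows MT-ND1, read 691.6, 826.5 and 696.0, with siRNA 1 the highest and the others alike. MT-TK read 219.7, 230.7 and 181.2, and MT-TT read 151.6, 150.5 and 98.4. These 5 tRNAs carry leucine, valine, isoleucine, lysine and threonine. The median tRNA stood at an FPKM of only 20.003 in the control library, 20.9 in the siRNA 1 library and 15.2 in the siRNA 2 library.

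MT-TV (ENSG00000210077.1) had the largest difference of all 37 genes with siRNA 2 on the scale of log2(FPKM + 1). On FPKM itself MT-TC and MT-TY stood lower relative to the control, at 30.01% and 30.29%, from 2.5 and 2.08 reads. Its reads numbered 3131, 2620.2 and 1082, and with siRNA 2 its FPKM was 37.35% of the control (interval 34.8% to 40.02%) against 88.24% with siRNA 1. The log2 ratios were -0.18 and -1.42. In limma, a linear model fitted over all 13923 genes with Benjamini-Hochberg adjustment, siRNA 2 differed from the other two libraries by -1.33 ± 0.21 (SE) for MT-TV with an adjusted p = 0.1235. Its flanking rRNAs, MT-RNR1 and MT-RNR2, gave log2 ratios of -0.35 and -0.09 in the same comparison with control. MT-TL1, on the far side of MT-RNR2, gave -0.24.

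MT-TI and MT-TE were the only members that were not lowest with siRNA 2. MT-TI stood at 119.5% of the control with siRNA 1 (interval 112.7% to 126.7%) and 100.6% with siRNA 2 (94.6% to 107.0%). Its log2 ratios of 0.26 and 0.01 were thus both above those of MT-ND1, the gene before it. MT-TE read only 11.16, 9.77 and 12.7 FPKM, from 34.3, 28.5 and 36.2 reads, and its interval with siRNA 2, 69.6% to 188.4% of the control, includes no difference. MT-TG, between MT-CO3 and MT-ND3, read 4.29, 5.45 and 4.16 FPKM from 13.0, 15.7 and 11.7 reads. MT-TW read 33.7, 46.55 and 30.6 and had the highest ratio with siRNA 1, a log2 of 0.45 (interval 106.3% to 181% of the control). MT-TM read 149.6, 129.4 and 117.1, below the control with both siRNAs, at log2 ratios of -0.21 and -0.35. The other plus-strand tRNAs, MT-TF, MT-TD, MT-TR, MT-TH, MT-TS2 and MT-TL2, had log2 ratios of -0.15 to 0.08 with siRNA 1 and of -0.685 to -0.27 with siRNA 2.

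Over the 22 tRNAs the median log2 ratio was 0.04 with siRNA 1 and -0.46 with siRNA 2. The spread was wider than for the mRNAs, from -0.525 (MT-TC) to 0.45 (MT-TW) with siRNA 1 and from -1.42 (MT-TV) to 0.17 (MT-TE) with siRNA 2. The rarest tRNAs rest on few reads, down to 2.08 (MT-TY with siRNA 2). With siRNA 2, 20 of 22 tRNAs were the lowest of the 3 libraries.

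Relative to the gene beside them, plus-strand tRNAs stood at a few percent or less. For the 14 plus-strand tRNAs and their nearest mRNA or rRNA, 17 pairs where ties count for both sides, the median FPKM of the tRNA was 2.07% of the neighbour in the control library, 1.86% in the siRNA 1 library and 2.03% in the siRNA 2 library. The lowest was MT-TG beside MT-CO3, at 0.0404%, 0.0487% and 0.0573%. The highest was MT-TV beside MT-RNR1, at 43.4%, 35.6% and 20.7%. MT-TV against its other neighbour, MT-RNR2, stood at 5.12%, 3.99% and 2.03%, while MT-TL1 against the same MT-RNR2 stood at 6.26%, 6.06% and 5.64%. The tRNAs on the 2 sides of the large rRNA thus stood in different proportions to it with siRNA 2. MT-TI was at 11.1%, 11.7% and 14.9% of MT-ND1. With siRNA 2 the tRNA was less far below the control than its neighbour in 10 of the 17 pairs.

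**Figure D4:**
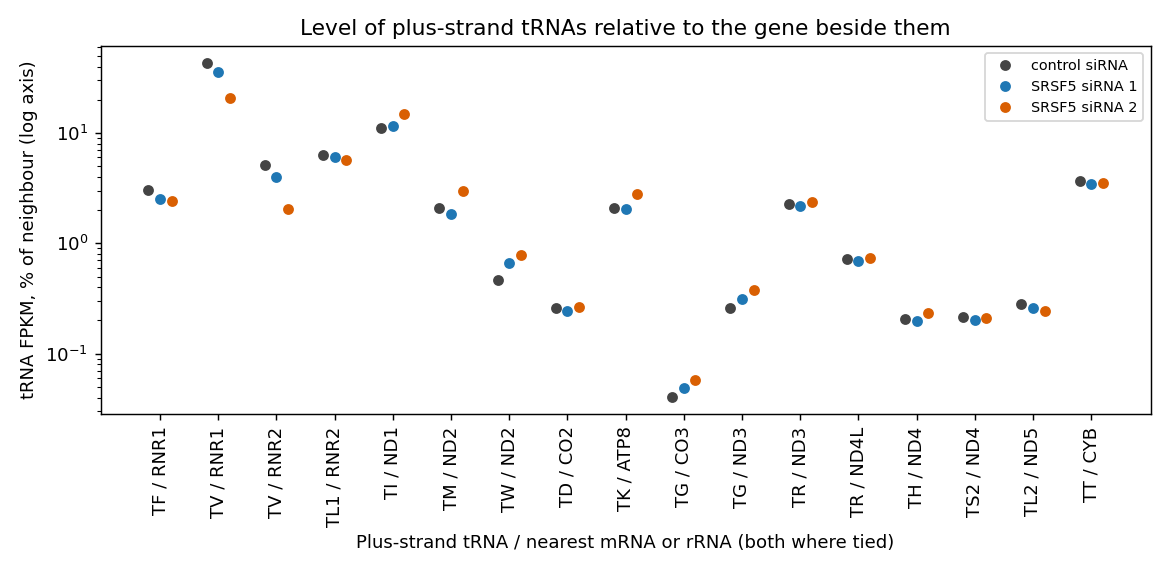
FPKM of each plus-strand tRNA as a percent of its nearest plus-strand mRNA or rRNA, on a log axis, with 1 point per library. MT-TV is at 43.4% of MT-RNR1 in the control and 20.7% with siRNA 2, and MT-TI at 11.1% and 14.9% of MT-ND1. MT-TW, at 0.467% and 0.782% of MT-ND2, and MT-TM, at 2.07% and 2.99% of it, lie further apart than MT-TI on this axis. In most other pairs the libraries lie closer together.

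The minus strand carries 9 of the 37 genes, MT-ND6 and 8 tRNAs, and took little of the RNA. Whether strand was used in counting was checked on single-exon transcripts that lie inside an exon of another gene, which a count blind to strand could not give more reads than the outer transcript. The inner one held more in 0 of 1387 pairs on the same strand in the control library and in 46 of 210 on opposite strands, with 0 of 1394 and 67 of 202 for siRNA 2, so strand was used. These 9 held 0.0412% of mitochondrial reads in the control library, 0.0356% in the siRNA 1 library and 0.0334% in the siRNA 2 library. MT-ND6, a complex I subunit, read 98.2, 90.9 and 56.6 FPKM. The siRNA 2 library was the lowest, at 57.6% of the control (interval 53.7% to 61.8%), a log2 ratio of -0.785. MT-CO1 was 191.7-fold, 217.6-fold and 213.8-fold above MT-ND6 in FPKM. MT-ND6 adjoins MT-ND5 on the other strand and stood at 2.68%, 2.255% and 2.3% of it.

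Of the minus-strand tRNAs, MT-TS1 (serine) read 17.6, 18.1 and 12.7 FPKM. It lies directly against the end of MT-CO1 and held 54.0, 52.8 and 36.2 reads. MT-TP read 15.5, 15.999 and 8.55 from 47, 46 and 24 reads. MT-TQ (glutamine) read 13.1, 13.5 and 12.6, nearly level. The 4 minus-strand tRNAs that lie together between MT-TW and MT-CO1 were, with MT-TG, the lowest of all. MT-TA (alanine) read 4.47, 4.71 and 2.34, and MT-TN (asparagine) read 3.66, 3.67 and 2.13. MT-TC (cysteine) read 3.06, 1.82 and 0.918, and MT-TY (tyrosine) read 2.52, 2.93 and 0.764. All 4 were lowest with siRNA 2, yet each interval against the control includes no difference. For MT-TC it was 2.52% to 116% (Clopper-Pearson), and at so few reads the rounding to whole reads alone moves it. Over the 8 minus-strand tRNAs the median log2 ratio with siRNA 2 was -0.64, and over the 14 plus-strand tRNAs it was -0.396. Pooled, the 8 took 0.000492% of all reads in the control library and 0.000367% in the siRNA 2 library. The 14, which include MT-TV, took 0.0264% and 0.0193%, so the pooled shares did not show the gap between the medians. The difference between the strands was not tested.

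Position along the chromosome was compared with the ratios by rank. Over the 28 plus-strand genes, Spearman's rho between the start of the gene and its log2 ratio was -0.02 with siRNA 1 and -0.19 with siRNA 2. For the 12 plus-strand mRNAs it was 0.25 and 0.18, and for the 14 plus-strand tRNAs 0.10 and -0.13. The control FPKM had a rho with the start of -0.19 over the 28 genes, -0.52 over the 12 mRNAs and -0.60 over the 14 tRNAs. These points share libraries and precursor transcripts and are given as a description.

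All 37 genes passed the filter for testing, so no member was lost to it. With siRNA 2, 35 of 37 were the lowest of the 3 libraries, 13 mRNAs, 2 rRNAs and 20 tRNAs, while 34.2% of all genes tested were. With siRNA 1, 29 of 37 were above the control, against 46.6% of all genes tested. At least 1.5-fold below both other libraries with siRNA 2 were 11 of 37, against a background of 5.88%. They were MT-ND2, MT-ND6, MT-CO1, MT-ATP6 and MT-ATP8 among the mRNAs and MT-TV, MT-TA, MT-TY, MT-TL2, MT-TT and MT-TP among the tRNAs. Since most mRNAs lie near this threshold, the count moved with the scaling: it was 18 with each library scaled to the median ratio over genes and 19 with scaling to the reads outside the mitochondrial chromosome. These folds are of FPKM + 1. At least 2-fold below both on that scale was 1 member, MT-TV, against 1.47% of all genes. On FPKM itself MT-TY, from 2.08 reads, was also more than 2-fold below both, at 30.29% of the control and 26.1% of siRNA 1. Set against the control alone on the scale of FPKM + 1, 13 of 37 were at least 1.5-fold lower with siRNA 2 (background 10.1%). With siRNA 1, 0 of 37 were (background 5.47%). On FPKM itself MT-TC was more than 1.5-fold lower with both, at 59.52% and 30.01% of the control. It rests on 9.0, 5.08 and 2.5 reads, and its interval with siRNA 1, 15.4% to 194.7%, includes no difference.

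The control was also compared with both SRSF5 siRNAs together. The background for a difference of at least 1.5-fold from the control in both siRNA libraries was 1.47% lower and 3.19% higher. Of the 37 members, 0 passed this rule on either side, on the scale of FPKM + 1. The siRNA 1 library decides this count, which with siRNA 2 alone is the 13 given above. At least 1.5-fold from both other libraries with siRNA 1 were also 0 of 37, against 2.69% lower and 1.84% higher. In limma with siRNA 2 as the odd library, 0 of 37 members passed an adjusted p of 0.05, as did 0 of all 13923 genes (0%). At an unadjusted p under 0.05, 20 of 37 members were lower with siRNA 2, 12 mRNAs and 8 tRNAs, against a background of 7.45% lower and 16.4% in either direction. The only mRNA outside these 20 was MT-ND1, and neither rRNA was among them. The smallest adjusted p among the mRNAs was 0.180 (MT-ND2, limma). With the control or with siRNA 1 as the odd library, 0 of 37 passed an adjusted p of 0.05 in limma, with 0% of all genes, and 0 of 37 passed an unadjusted p under 0.05, against 2.99% and 2.39%. Each fit has 1 residual degree of freedom, and the odd library is assumed to vary like the other two. The difference between the siRNAs is therefore part of the spread when the control is the odd library.

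**Figure D5:**
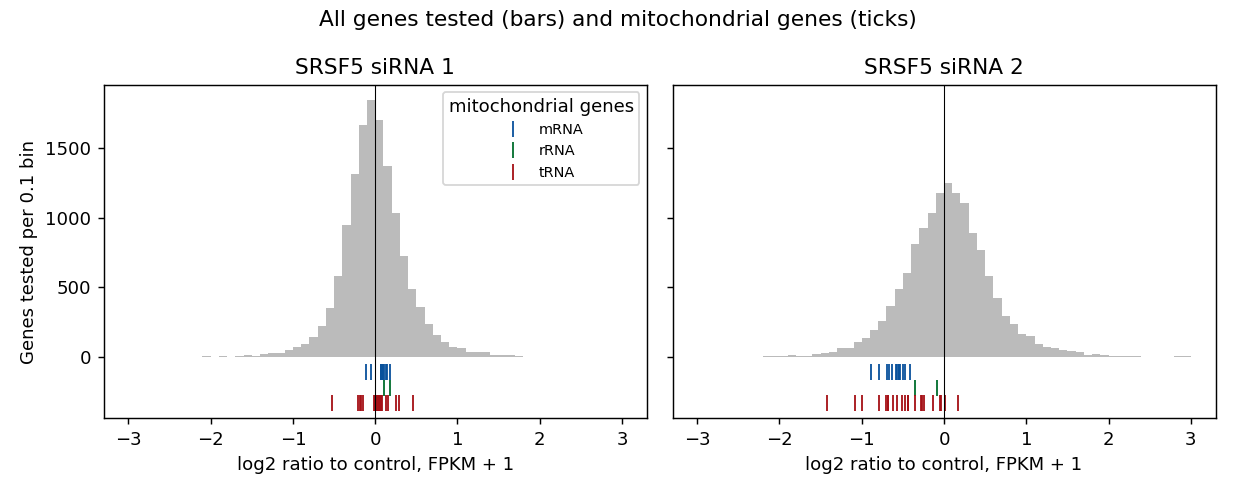
Log2 ratio of FPKM + 1 to the control for the genes tested (grey bars, genes per bin of 0.1, with ratios beyond the bars' range put in the outermost bin) with the mitochondrial mRNAs, rRNAs and tRNAs as ticks below, for siRNA 1 on the left and siRNA 2 on the right. The mRNA ticks sit near 0 with siRNA 1 (median 0.08) and at a median of -0.57 with siRNA 2, where the median of all genes is 0.0455.

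Some mitochondrial mRNAs have near-identical copies in the nuclear genome, and reads in stretches they share cannot be placed with certainty. Of all windows of 100 bases, 27.9% in MT-CO1, 26.1% in MT-ND2, 11.9% in MT-ATP6, 11% in MT-ND1, 4.38% in MT-CO3 and 2.39% in MT-CO2 were found letter for letter in a nuclear transcript. No window of that length was found in the other mRNAs or in the rRNAs. The read length is not given, and with windows of 50 bases the share was 49.5% in MT-CO1, 46.7% in MT-ATP6 and 43.6% in MT-ND2. At that length it was 30.6% in MT-CO3, 29% in MT-CO2, 22.1% in MT-ND1 and 17.9% in MT-ND6. It was then also above 0 in MT-RNR2 (14%), MT-ATP8 (8.23%), MT-ND5 (4.76%), MT-ND4 (3.54%) and MT-CYB (1.19%), and 0 in MT-RNR1, MT-ND3 and MT-ND4L. The copies held sizeable counts: MTATP6P1 held 24.5%, 26.3% and 27.8% as many reads as MT-ATP6, and MTND2P28 held 7.76%, 8.725% and 8.99% as many as MT-ND2. MTCO1P12 held 6.895%, 8.11% and 8.94% of the MT-CO1 reads. The list held 25 copies, 12 of mRNAs and 13 of MT-RNR2. Relative to the reads of the mitochondrial gene, 23 of 25 held more with siRNA 1 than in the control and 25 of 25 held more with siRNA 2. The 2 exceptions with siRNA 1, MTRNR2L4 and MTRNR2L9, had at most 3.5 reads in any library. Over the 12 copies of mRNAs the median log2 ratio was 0.30 with siRNA 1 and -0.18 with siRNA 2. Over the 13 copies of MT-RNR2, most of them rare, it was 0.13 and 0.04, on the scale of FPKM + 1, which shrinks the ratios of rare genes. Over the 4 copies of MT-RNR2 that passed the filter it was 0.38 and 0.29. Adding the reads of the copy to its member moved MT-ND2 with siRNA 2 from -0.88 to -0.87, MT-CO1 from -0.64 to -0.61 and MT-ATP6 from -0.67 to -0.63.

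Nuclear genes that serve mitochondrial gene expression were read from 9 lists, with 197 genes tested of 200 listed. In both SRSF5 siRNA libraries, 0 were at least 1.5-fold lower and 0 at least 1.5-fold higher than the control. With siRNA 2, 13 of 197 (6.6%) were at least 1.5-fold below both other libraries, close to the background of 5.88%, and 1 was that far above both, against 7.18% of all genes. The median log2 ratio over the 197 genes was -0.20 with siRNA 1 and -0.17 with siRNA 2. In limma 0 of 197 passed an adjusted p of 0.05 in any of the 3 comparisons, and at an unadjusted p under 0.05 there were 23 with siRNA 2 as the odd library (all genes 16.4%) and 0 with the control or siRNA 1 as the odd one.

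Within each list the genes with the lowest and the highest mean ratio were as follows, with log2 ratios for siRNA 1 and then siRNA 2. Among 14 genes of mitochondrial transcription, MRPL12, which also is a ribosomal protein, gave -0.796 and -0.51, and MTERF4 gave 0.03 and 0.53. Among 14 of mitochondrial DNA replication, TWNK, the replicative helicase, gave -0.50 and -0.385, and TK2, a thymidine kinase, gave 0.09 and 0.47. The 5 genes of tRNA excision and CCA addition ranged from TRMT10C, a subunit of the RNase P that cuts the 5′ ends of mitochondrial tRNAs, at -0.44 and -0.24, to its partner HSD17B10 at 0.03 and 0.17. Thus no enzyme of tRNA excision reached 1.5-fold.

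Of 26 genes of RNA stability, polyadenylation and decay, FASTKD1 was lowest at -0.48 and -0.96 and the pseudouridine synthase RPUSD4 highest at 0.03 and 0.61. RPUSD4 was also the highest of 9 genes of rRNA modification, where the methyltransferase METTL15 was lowest at -0.4755 and -0.85. For tRNA modification, with 18 genes, OSGEPL1 gave -0.32 and -1.01 and GTPBP3 gave 0.14 and 0.12. Among 22 mitochondrial aminoacyl-tRNA synthetases, TARS2, which charges the threonine tRNA, gave -0.15 and -1.29 (adjusted p = 0.1505 in limma with siRNA 2 as the odd library), and CARS2, which charges the cysteine tRNA, gave 0.45 and 0.54. Of 81 mitochondrial ribosomal proteins, MRPL15 was lowest at -0.3975 and -1.23 and MRPL32 highest at 0.43 and 0.34. The 12 translation factors ran from MTIF2, an initiation factor, at -0.2475 and -0.89 to MTRF1L, a release factor, at 0.04 and 0.32.

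For comparison, 27 nuclear subunits of the respiratory complexes had median log2 ratios of -0.26 and -0.297, with COX7C of complex IV lowest at -0.33 and -1.59 and COX6C highest at 0.17 and 0.06. The RNAs of 16 proteins taken as a sign of mitochondrial mass had median log2 ratios of -0.16 and -0.02. Among them TOMM20, an import receptor of the outer membrane, was lowest, with summed FPKM of 97.9, 87.8 and 25.7, and VDAC1, the outer membrane channel, was highest at 197.3, 196.7 and 264.5. With siRNA 2 the log2 ratios of these 16 were mixed, from -1.89 (TOMM20) to 0.42 (VDAC1), and mitochondrial mass itself was not measured. The difference between these lists was not tested.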

How the data were processed

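RNA from 3 HaCaT libraries was analysed. Per the labels' protocols, RNeasy plus columns gave the RNA and a SMARTer mRNA-Seq kit the libraries. The authors deposited FPKM for each transcript with its exons and length, as the file headers state. The submitters' processing notes name GRCm38, mm10 and GRCh38.p12, and the transcripts are human. No aligner or counter is given in the sources used here.

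In each library 100% of the products of FPKM and length were whole multiples of a smallest unit (tolerance 0.05), taken as 0.01 of a read. In genes with 2 transcripts 62.7% of control values were multiples of a read divided by 2, against 28.3% whole reads, so reads appear divided among the transcripts they touch. The rule is not complete: in isolated genes of 1 transcript only 34.8% of control values were whole reads. Below 10 reads 47.8% of the others were multiples of a twelfth of a read, against 11.1% if spread evenly. If the unit were instead a base covered, the read counts and intervals would change and the ratios of FPKM would not. Whether a read is a pair, and how multiply matching reads were placed, is not known.

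FPKM was summed per gene, leaving out 20343 of 247012 transcripts on alternate scaffolds or duplicate regions, and 60214 of 60506 genes had a symbol. The filter was a mean of 1 FPKM. limma 3.58.1 (R 4.3.3, trend) was fitted to log2(FPKM + 1), a scale that shrinks the ratios of low genes, with each library in turn as the odd one. Tested on simulated data over 13923 genes with siRNA 2 odd, it called 4 of 50 genes planted at a log2 of 1 and 40 of 50 at 2. The simulated spread was taken from the difference between the siRNA 1 and siRNA 2 libraries. The real fit with siRNA 2 odd takes its spread from the control and siRNA 1, so these counts do not give the power of that fit. No count model was run. Values are given for mRNAs, rRNAs, minus-strand tRNAs, the 5 highest tRNAs and the 3 highest and lowest ratios per siRNA. From nuclear lists, genes 1.5-fold away with both siRNAs, or else both extremes of the mean ratio, are named. Members and lists were chosen with earlier results of these data known. Alternatives changed the pseudocount, scaling, filter, gene level, limma prior, fold and libraries.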

Additional observations from a re-analysis of the deposited data

How the results depend on the processing

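In limma, 0 of 37 mitochondrial genes passed an adjusted p of 0.05 in each of the 3 comparisons under all 8 alternatives run. With a library left out the fit has no residual degree of freedom, so no test was made. No paired analysis was possible because the control group holds 1 library and shares fewer than 2 replicate numbers with the siRNA group. The count of members that differed at least 1.5-fold from control with both siRNAs was 0 and became 1, MT-TC, with a pseudocount of 0.1. With 1 siRNA library left out it ranged from 0 (without siRNA 2) to 13 (without siRNA 1), which leaves a rule on fewer libraries. The count at least 1.5-fold from both other libraries with siRNA 2 was 11. It was 18 with median scaling, 19 with scaling to reads outside the mitochondrial chromosome, 1 at 2-fold and 6 with reads per library size, where 28 members passed the filter. The last setting and the addition of nuclear copies were chosen after seeing the data. Median log2 ratios with siRNA 2 ranged over the alternatives from -0.635 to -0.573 for mRNAs, from -0.5175 to -0.458 for tRNAs and from -0.283 to -0.221 for rRNAs. Those with siRNA 1 ranged from 0.0795 to 0.108, 0.0407 to 0.0678 and 0.142 to 0.171. Each median rests on 1 siRNA library, so leaving that library out gives no value. Counts limit the rarer tRNAs, among them MT-TA, MT-TN, MT-TC, MT-TY, MT-TG and, with 17.65 reads for siRNA 2, MT-TL2, whose intervals include no difference.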
